A study of Caenorhabditis elegans with 2 samples.

Results

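The regions described here are 229 ChIP-seq peaks of a CEH-40 fusion protein in Caenorhabditis elegans. Each had its summit more than 1 kb from the start of every protein-coding gene and of every tRNA, snoRNA, snRNA and rRNA gene. They were chosen by position alone from the 840 nuclear peaks of the thresholded list that the authors made from their replicates together (the pooled list), and are called far peaks below. Of the remaining 611 nuclear peaks, 302 lay within 1 kb of a small RNA gene start and 309 within 1 kb of a protein-coding start only. ChIP-seq had been done on young adult worms of 1 strain, taken whole at 76 h of age, grown from larvae synchronised by starvation after bleaching. The strain carries wgIs232, a transgene of ceh-40 fused to TY1, EGFP and FLAG with a copy of unc-119, on the unc-119(ed3) mutation, and chromatin was precipitated with an antibody against GFP. There were 2 biological replicates of 1 group, so no conditions were compared. Signals from whole animals mix all tissues, and the labels name no promoter for the fusion beyond the ceh-40 transgene itself. The lists hold no read counts, so sequencing depth is unknown.

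CEH-40 is a homeodomain protein of the PBC class, relatives of vertebrate PBX proteins, which bind DNA together with Hox proteins and with partners of the MEIS class. Most known worm regulatory sites lie close to gene starts, since worm genes are compact. Sequence farther away holds introns, coding exons, gene ends, pseudogenes and repeats. Repeats matter for peak lists because a read from a sequence with many copies can be placed at several positions, and the copies present in a reference genome may be fewer than those in the worm. How such reads were treated in this study is not given in the sources used here.

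Within the pooled list, the strongest far peaks lay on 1 kind of tandem repeat. The 9 far peaks of highest signal, and 30 of the 229 in all (13.1%, Wilson 95% interval 9.33 to 18.1), had summits in arrays packed with TTCNNGAA, the inverted pair of units that heat shock factor recognises. The heat shock element consists of such units in alternating orientation, and the factor, HSF-1 in worms, drives chaperone genes after heat. In either replicate's own list, which holds 71 far peaks, the share on arrays was 25.4%. Outside the pooled list, 10 far candidates past the same threshold had higher signals than any far peak, and none of them lay on such an array. They are given under the results flagged for a closer look. An array was called where the 200 bp around a summit held 10 or more matches to 3 units in a row, a rule made after the sequences had been seen. Each of the 30 peaks held between 15 and 31 such matches (median 20), 3 other far peaks held fewer than 10, and 196 held none. Strong arrays, 4 in number, and the array of lowest signal are printed here because the finding rests on their letters, with every pair of inverted units in capitals.
srv-14, chrIV:15896008-15896127, + strand: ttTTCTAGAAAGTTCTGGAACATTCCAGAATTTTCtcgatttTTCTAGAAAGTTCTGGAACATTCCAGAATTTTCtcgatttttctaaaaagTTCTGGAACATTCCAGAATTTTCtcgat
fbxa-190, chrX:1375163-1375282, + strand: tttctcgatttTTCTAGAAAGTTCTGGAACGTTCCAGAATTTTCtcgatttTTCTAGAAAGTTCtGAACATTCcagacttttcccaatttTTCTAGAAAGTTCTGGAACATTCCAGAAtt
Y41E3.13, chrIV:15059295-15059414, + strand: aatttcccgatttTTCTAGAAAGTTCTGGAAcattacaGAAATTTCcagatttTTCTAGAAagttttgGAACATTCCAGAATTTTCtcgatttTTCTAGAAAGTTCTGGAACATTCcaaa
Y102A11A.1, chrX:2057976-2058095, + strand: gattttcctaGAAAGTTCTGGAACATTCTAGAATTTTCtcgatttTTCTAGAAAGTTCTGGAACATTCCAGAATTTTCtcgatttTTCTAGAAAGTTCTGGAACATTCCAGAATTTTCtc
cec-8, chrIII:425679-425798, + strand: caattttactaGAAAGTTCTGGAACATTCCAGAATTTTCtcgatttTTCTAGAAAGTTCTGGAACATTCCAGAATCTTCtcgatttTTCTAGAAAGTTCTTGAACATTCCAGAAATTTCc

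The 300 bp around each summit were compared with themselves at rising shifts, and a larger shift was taken only where it matched better by a set margin. The shift taken was 40 bp or a multiple of it in 27 of the 30 array peaks. In these the match ran from 60.8% of bases (unc-82) to 97.7% (nhr-291). All 30 summits were soft-masked as repeats in RefSeq's WBcel235 sequence, and the GC content of the 200 bp was 33.6% ± 1.78 (SD, n = 30 peaks). The median 24-base word in these windows occurred between 2 and 231 times in the nuclear genome, with a median over the 30 peaks of 28.

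The peak printed first was the strongest nuclear peak of the pooled list. It lay 1835 bp from srv-14, a chemoreceptor gene, on chromosome IV, with a pooled signal of 379.6, and with 204.1 in replicate 1 and 181.9 in replicate 2. The peak near the F-box gene fbxa-190 on X had a pooled signal of 272.0, with 135.6 and 136.6 in the replicates. A further peak of this kind, 106 bp from the noncoding RNA gene Y41E3.460 on IV, had 258.2, with 141.7 and 119.6. The peak 1688 bp from the noncoding RNA gene Y102A11A.11 on X had 245.7, with 93.3 and 120.8. The median far peak had 33.6 in replicate 1 and 34.3 in replicate 2. These peaks were named for their high pooled signal, which draws on both replicates. Their high replicate values therefore largely follow from the choice and are no separate support.

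Other strong arrays lay in introns or between genes. In tir-1, which encodes a TIR domain adaptor of innate immunity, 2 intronic peaks had pooled signals of 236.7 (122.9 and 120.1 in replicates 1 and 2) and 224.1 (132.3 and 103.8), at III 3897579 to 3897696 and III 3897261 to 3897358. They shared 1 array of 633 bp. In an intron of cua-1, a copper-transporting ATPase, the signal was 145.3, with 50.9 in replicate 1 and 87.6 in replicate 2 (III 13447600 to 13447659). In an intron of oat-1, an organic anion transporter, it was 120.3, with 67.4 and 54.0 (IV 8468775 to 8469014), and in an intron of unc-82, a muscle kinase gene, 106.1, with 40.3 and 59.7 (IV 7441053 to 7441292). Between genes, the array near the nuclear hormone receptor gene nhr-291 had 203.6, with 112.0 and 98.7, and that near fezf-1, a zinc finger gene, 171.3, with 86.0 and 86.8. Near ttm-5, a putative sphingolipid desaturase gene on chromosome I, 2 peaks on 1 array of 854 bp had 260.5 (112.6 and 153.9) and 112.3 (46.3 and 58.6). The weakest array peak, 3599 bp from the chromodomain gene cec-8, had 53.8, with 27.9 and 28.3. Array peaks therefore ranged over most of the signal scale, and 16 of the 30 had a pooled signal of 100 or more, against 3 of the 139 far peaks on single-copy sequence. Of all 840 nuclear peaks 119 reached that value, and so did 46 of the 373 other nuclear peaks on single-copy sequence.

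**Figure D1:**
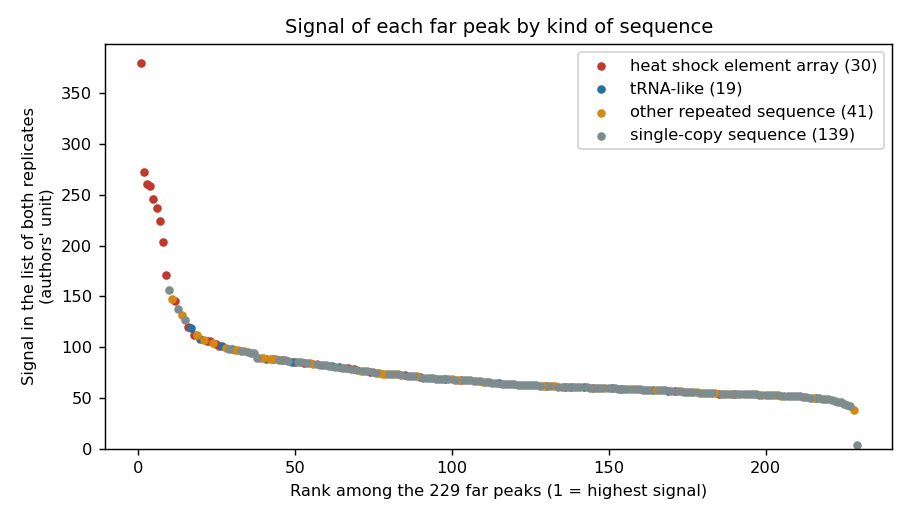
Pooled signal of each far peak (authors' unit, linear scale) against its rank, with 1 point for each of the 229 peaks and the colour giving the kind of sequence. The 9 highest points, from 171.3 to 379.6, are all arrays of heat shock elements, and the other kinds lie at 156.6 or lower.

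By class, 20 array peaks were intergenic, 8 lay in introns and 2 in pseudogenes, and none lay in coding sequence, in an untranslated exon or at a gene end. Of the bases that meet the distance rule, 31.4% were intergenic, 32.8% intronic and 4.74% in pseudogenes. Coding sequence made up 21.6% of them, untranslated exons 3.52% and gene ends 4.64%. With 30 peaks, the absence from untranslated exons and gene ends carries little weight. Chromosome IV held 10 of the array peaks, X 6, III 5, V 4, II 3 and I 2. In the same order, these chromosomes held 17.7%, 19.4%, 14.5%, 18.6%, 14.3% and 15.5% of the bases that meet the distance rule.  The peak intervals of 8 array peaks were narrower than the 240 bp of most peaks.

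Most arrays of this kind in the genome had no peak of the list. Joining 3-unit matches no more than 100 bp apart and asking for 10 or more gave 256 arrays on the nuclear chromosomes, with a median length of 212 bp and a longest one of 1858 bp. Of these, 36 (14.1%) held a summit of the thresholded list, 27 of them the summit of a far peak, and 120 (46.9%) held at least a candidate of the ranked list. By length, the thresholded list had a summit in 5 of 121 arrays under 200 bp (4.13%), in 7 of 67 from 200 to under 400 bp (10.4%), in 19 of 50 from 400 to under 800 bp (38%) and in 5 of 18 of 800 bp or more (27.8%). In that longest class 17 of 18 (94.4%) held a candidate and 10 (55.6%) held one past the threshold. A longer array also has more room for a summit, and the part of length in these shares was not tested.

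**Figure D2:**
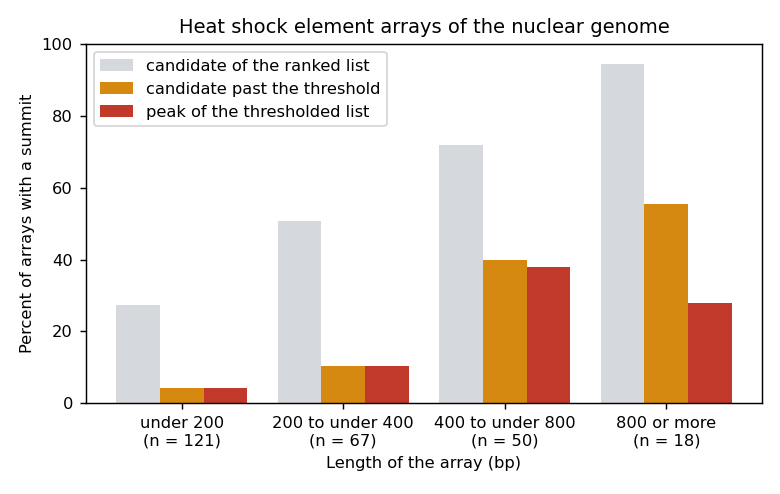
Percent of the arrays of heat shock elements in the nuclear genome that hold a summit (vertical axis), by array length in bp (horizontal axis, number of arrays in brackets), for all candidates, candidates past the threshold and peaks of the thresholded list. The share with a candidate goes from 27.3% to 94.4% between the shortest and longest classes.

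Elsewhere the word was counted in the same way. At least 10 matches occurred in 0.119% of the 273562 windows of 200 bp that met the distance rule throughout, and in 1.64% of the other nuclear peaks, 10 peaks in all. The single pair TTCNNGAA, searched on both strands, was present in 21.4% of far peaks (16.6 to 27.2), in 10.3% of other nuclear peaks and in 13.9% of the windows. On single-copy sequence 12.2% of far peaks had it. The part of copy number and masking in the signal of the arrays was not tested.

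A smaller set of far peaks carried letters like those of the internal promoter of a tRNA gene. By the distance rule, no far peak had an annotated tRNA gene start within 1 kb. RNA polymerase III genes for tRNAs are read from a pair of short boxes inside the gene, the A box and the B box. Both boxes on 1 strand, 25 to 80 bp apart, were present in 19 far peaks (8.3%, 5.38 to 12.6) and in 0.264% of the windows. The same search found them in 550 of the 612 nuclear tRNA genes (89.9%), in 201 of the 302 peaks near small RNA genes (66.6%) and in 7 of the 309 promoter peaks (2.27%). Because the search was made after tRNA-like letters had been seen in some far peaks, the share is a description. The 4 of highest signal are printed with the A box, on the left, and the B box in capitals, since their likeness to tRNA genes can be read from them directly.
F09E5.7, chrII:5353815-5353888, - strand: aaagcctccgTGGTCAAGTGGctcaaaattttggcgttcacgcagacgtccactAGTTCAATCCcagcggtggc
C14C11.7, chrV:5667466-5667539, - strand: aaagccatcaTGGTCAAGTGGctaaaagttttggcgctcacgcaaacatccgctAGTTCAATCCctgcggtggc
srt-52, chrV:53473-53546, + strand: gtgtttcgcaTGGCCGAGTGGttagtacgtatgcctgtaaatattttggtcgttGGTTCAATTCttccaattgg
nhr-277, chrIV:2740211-2740284, + strand: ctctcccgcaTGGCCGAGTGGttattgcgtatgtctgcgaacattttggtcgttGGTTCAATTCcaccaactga

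Over their 74 bases the first pair of these sequences were 86.5% identical and the second pair 81.1%. The peak past the end of F09E5.7 had a pooled signal of 118.7, with 56.4 in replicate 1 and 61.2 in replicate 2, and that near C14C11.7 had 107.7, with 48.1 and 58.4. The peak in an intron of srt-52, a chemoreceptor gene, had 100.7, with 40.7 and 60.2. The peak inside the tRNA pseudogene Y94H6A.t1, near nhr-277, had 97.8, with 44.3 and 57.4. Replicate 2 was the higher in all 4, and in 16 of the 17 tRNA-like peaks with a candidate in both replicates. It was the higher in 123 of 220 far peaks in all, and in 124 of 202 tRNA-like peaks among the other nuclear peaks.

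Some of the tRNA-like peaks lay near annotated pseudogenes. The annotation of RefSeq lists 209 tRNA pseudogenes, and 2 of the 19 peaks lay within 500 bp of one. They were the peak in Y94H6A.t1 and the peak 28 bp from C52E12.t1 in an intron of unc-104, a kinesin gene (signal 85.6, with 35.8 and 45.7). No other far peak was within 500 bp of a tRNA pseudogene, and 3 of the 611 other nuclear peaks were. Other pseudogenes lay 476 bp from the peak in an intron of zim-1 (T07G12.14) and 314 bp from the peak near xtr-2 (F17A2.4). The nearest tRNA gene was between 1.13 and 804 kb away, with a median distance of 66.3 kb. The 2 peaks near dpy-1, a cuticle gene, were 1.13 and 1.54 kb from a tRNA gene. Of the 19, 9 were of single-copy sequence by the median 24-base word. A family of 8 far peaks that share 20-base words, with signals from 57.9 to 100.7, held 6 of the 19, among them those at srt-52, nhr-277, aagr-2 and cdc-25.2.

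Other repeated sequence, with a median 24-base word present 2 or more times and neither of the patterns above, held 41 far peaks, with a median signal of 71.2. Altogether the median word was repeated in 81 of the 229 far peaks (35.4%, 29.5 to 41.8), in 5.56% of the other nuclear peaks and in 11.6% of a sample of the windows, 1 in 10. Repeat masking and copy number did not coincide here, as 24 of these 41 peaks were masked over less than 50% of the window. The 3 of highest signal among those that matched themselves over more than 80% of bases, at the shift taken as for the arrays, are printed, with 1 repeat unit in capitals.
Y53G8AR.1, chrIII:3335080-3335199, + strand: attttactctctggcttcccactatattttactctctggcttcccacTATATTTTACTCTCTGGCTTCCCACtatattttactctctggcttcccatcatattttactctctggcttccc
Y54F10AM.8, chrIII:2499420-2499539, + strand: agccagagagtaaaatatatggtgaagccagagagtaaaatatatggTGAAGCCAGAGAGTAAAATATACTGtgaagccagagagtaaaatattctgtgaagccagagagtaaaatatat
tmd-2, chrV:8329525-8329644, + strand: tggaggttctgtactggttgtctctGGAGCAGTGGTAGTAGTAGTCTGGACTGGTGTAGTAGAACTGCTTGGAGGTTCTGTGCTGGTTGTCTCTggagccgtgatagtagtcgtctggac

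The first pair of these hold a repeat of 25 bp, with 7 shared 15-base words when 1 of them is read on the other strand and 0 as printed. The strongest far peak on other repeated sequence, 1547 bp from duo-3, had no clear tandem period, with a pooled signal of 147.8, and with 105.5 in replicate 1 and 61.4 in replicate 2. The peak 1162 bp from Y53G8AR.1 had a pooled signal of 112.1, with 66.7 in replicate 1 and 46.1 in replicate 2. The peak near Y54F10AM.8 had 107.2, with 53.2 and 53.9, and lay in a run of 3 far peaks within 3764 bp on III, whose last peak was an array of heat shock elements (67.6). The last sequence, near tmd-2, which encodes tropomodulin, repeats every 69 bp and was not masked at all, with a signal of 103.8 (58.4 and 44.2). In an intron of cmk-1, a calmodulin-dependent kinase gene, a peak of 62% GC had 132.1, with 56.3 and 69.2 (IV 1831264 to 1831503).

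A dispersed family of 7 far peaks shared longer words without tandem copies. The family had a mean GC content of 53.1%, against 35.3% in the windows, and a median copy number of 12. Capitals in the 3 sequences printed mark bases in 20-base words held by at least 4 of the 7 peaks, and the sequences are shown because no gene or repeat annotation used here names the family.
dmd-10, chrV:13239829-13239968, + strand: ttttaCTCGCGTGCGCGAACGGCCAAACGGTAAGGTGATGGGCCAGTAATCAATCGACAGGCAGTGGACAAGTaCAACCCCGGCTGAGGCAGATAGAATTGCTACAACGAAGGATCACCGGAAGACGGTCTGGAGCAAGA
K08C7.1, chrIV:10658464-10658603, + strand: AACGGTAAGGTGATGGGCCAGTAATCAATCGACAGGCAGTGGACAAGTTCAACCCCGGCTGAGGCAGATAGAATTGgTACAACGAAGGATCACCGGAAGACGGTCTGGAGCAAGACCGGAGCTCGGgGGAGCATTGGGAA
T24H10.5, chrII:9102754-9102893, + strand: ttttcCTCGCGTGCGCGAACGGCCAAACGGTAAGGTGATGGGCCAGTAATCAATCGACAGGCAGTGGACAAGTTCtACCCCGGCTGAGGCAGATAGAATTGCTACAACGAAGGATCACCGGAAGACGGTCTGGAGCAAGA

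The 7 peaks had similar signals, from 67.0 to 97. They lay near dmd-10, a DM domain gene (97, with 38.6 and 54.3 in replicates 1 and 2), in introns of K08C7.1 (95.9, with 42.1 and 49.7), T24H10.5 (89.5, with 49.6 and 43.6), ptr-17 (74.3, with 40.7 and 33.9) and pmt-2 (67.0, with 29.5 and 30), near the ferritin gene ftn-1 (88.3, with 35.7 and 53.5), and in the noncoding RNA K02E11.15 (80.3, with 33.9 and 41.8). The last of these also counted among the tRNA-like peaks. All 7 were in the conservative list. In all, 61 of the 229 far peaks shared 3 or more 20-base words with another far peak.

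Single-copy sequence held the other 139 far peaks, whose signals were lower. Their median was 61.1, with quartiles of 54.2 and 71.7, against 63.7 for the 373 other nuclear peaks of single-copy sequence. The strongest lay in coding sequence of dos-3, which encodes a secreted Notch co-ligand of the DOS family, 143 bp from zip-2, a bZIP gene of the infection response. It had a pooled signal of 156.6, with 73.3 in replicate 1 and 71.8 in replicate 2. The next lay in the noncoding RNA F36H1.17, 79 bp from the microRNA gene mir-51, with 138.0, and with 35.7 and 85.1. The third, 1462 bp from the tRNA gene W02H3.t1 on X, had 127.1, with 50.2 and 71.7. The first 2 are printed with no capitals, as a contrast to the repeats above. The sequence near mir-51 does hold the B box part GGTTCGA on its other strand (tcgaacc as printed). The search for both boxes did not find the pair there.
dos-3, chrIII:835897-836016, + strand: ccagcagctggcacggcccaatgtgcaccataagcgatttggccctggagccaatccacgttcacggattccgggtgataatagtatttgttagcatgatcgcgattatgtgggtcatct
alh-3, chrIV:11026131-11026250, + strand: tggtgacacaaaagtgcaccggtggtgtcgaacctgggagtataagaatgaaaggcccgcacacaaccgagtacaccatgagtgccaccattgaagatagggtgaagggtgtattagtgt

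By location, far peaks fell into all 7 classes. Intergenic sequence held 80 of 229 (34.9%, 29.1 to 41.3) against 31.4% of the bases that meet the distance rule, and introns 45 (19.7%, 15 to 25.3) against 32.8%. Coding sequence held 27 (11.8%, 8.23 to 16.6) against 21.6%. Gene ends, the 500 bp after a protein-coding gene, held 30 (13.1%, 9.33 to 18.1) against 4.64%, and untranslated exons 23 (10%, 6.79 to 14.6) against 3.52%, of which 19 were after the stop codon. Exons of other noncoding RNAs held 17 (7.42%, 4.69 to 11.6) against 1.29%, and pseudogenes 7 (3.06%, 1.49 to 6.17) against 4.74%. In the other nuclear peaks the shares were 23.2% for intergenic sequence, 20.5% for introns, 13.7% for coding sequence, 15.2% for gene ends, 5.89% for untranslated exons, 21.1% for noncoding RNA exons and 0.327% for pseudogenes. Neighbouring peaks are not independent, and the intervals cover counting error only.

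**Figure D3:**
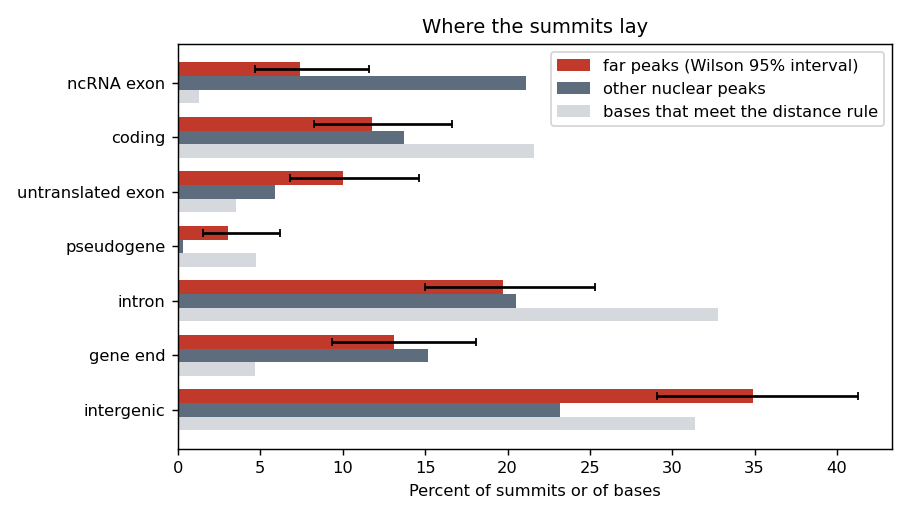
Percent of far peaks (red, with Wilson 95% intervals), of other nuclear peaks (dark) and of the bases that meet the distance rule (light) in each location class. Gene ends, untranslated exons and noncoding RNA exons hold larger shares of far peaks than of the bases, and coding sequence and introns smaller ones.

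Of the 53 peaks at gene ends and in untranslated exons, 44 were on single-copy sequence as grouped here, and 47 when tRNA-like peaks with a median word of 1 copy are added. The 44 made up 31.7% of the single-copy far peaks. Gene end summits lay between 4 and 394 bp past the end, with a median of 117 bp, and 14 of 30 were within 100 bp. Below the tRNA-like peak at F09E5.7, the strongest was 154 bp past the HSP70 gene F44E5.4 and 34 bp from the noncoding RNA F44E5.16, with a pooled signal of 85.4, and with 58.0 in replicate 1 and 27.5 in replicate 2. It was followed by nra-1, a nicotinic receptor regulator (82.8, with 41.0 and 37.3), klp-7, a kinesin that shortens microtubules (82.6, with 30.4 and 45.5), C01G5.5 (79.0, with 38.9 and 34.4) and xbp-1, a bZIP factor of the unfolded protein response (76.2, with 33.7 and 52.7). Among the others, named after their values were seen, mut-16, an organiser of small RNA foci, had 68.8 (39.0 and 26.4), and pgl-1, a P granule protein, had 60.1 with 36.6 in replicate 2 and no candidate in replicate 1.

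Among untranslated exons, tir-1 had a second kind of peak, single copy and 35 bp from rpl-3, with 94.5 (34.8 in replicate 1 and 58.4 in replicate 2). The gene lin-29, a zinc finger regulator of larval timing, had 84.5 (50.6 and 39.6), and ran-1, the nuclear transport GTPase, 83.0 (23.3 and 60.4), at a position that also lies in rib-2. The most crowded gene was tos-1, which is used as a splicing reporter. It held 4 far peaks within 2459 bp on V, with signals of 87.1, 83.3, 61.8 and 87.6, of which the middle pair were in sequence repeated within the genome.

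Coding sequence had a median signal of 60.7 over its 27 peaks. After dos-3 came anmt-1, a methyltransferase gene (96.1, with 51.0 and 44.2 in replicates 1 and 2), D2030.12, whose peak lay 88 bp from the Piwi gene prg-1 (95.3, with 45.3 and 50.5), maph-1.2, a microtubule-associated protein (71.2, with 32.6 and 41.1), and pck-1, a phosphoenolpyruvate carboxykinase gene (69.4, with 35.5 and 30.2). The list of replicate 1 overlapped 8 of the 27, or 29.6%, where it overlapped 29.2% of all nuclear peaks. The list of replicate 2 overlapped 2, or 7.41%, where it overlapped 29.5% of all nuclear peaks.

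Another noncoding RNA gene lay within 500 bp of 30 far peaks (13.1%, 9.33 to 18.1) against 7.27% of the bases and 38% of the other nuclear peaks. The longest series was at C30E1.9, an unclassified noncoding RNA on X, with 3 peaks within 1646 bp. Their signals in order of position were 97.9 (65.3 and 43.5 in replicates 1 and 2), 89.7 (46.9 and 41.9) and 99.0 (40.6 and 39.5). A microRNA gene was within 500 bp of 4 far peaks, a lincRNA of 1 and an antisense RNA of 1. Shares of the bases near each of these types are not given, so the counts cannot be judged alone. Pseudogenes were within 500 bp of 16 (6.99%, 4.35 to 11.0), the same share as among the bases, and of 1.64% of the other nuclear peaks. The strongest of these, in the pseudogene Y9C9A.112 near str-158, was an array of heat shock elements (103.1, with 50.9 and 48.3). Peaks on other repeated sequence lay 76 bp from the pseudogene K08F11.6 (97.5, with 43.1 and 52.5) and 463 bp from K07D4.1 (87.9, with 45.6 and 40.3). Inside pseudogenes, the peak in Y38H8A.8 had 65.8 (28.9 and 33.3), that in T23D5.5 had 55.7, and that in F02H6.4, an array near sqrd-1, had 54.3 (32.0 and 26.1). A piRNA gene was within 500 bp of 4 far peaks, among them the strongest, against 5.67% of the bases. Start sites of some gene other than piRNA genes lay within 1 kb of 42 of the 229 far peaks.

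Soft-masked repeats held 73 far summits (31.9%, 26.2 to 38.2), against 37.6% of the bases and 14.2% of the other nuclear peaks. Of the 73, 30 were the arrays described above. Masked shares were 100% for arrays, 48.8% for other repeated sequence, 21.1% for tRNA-like peaks and 13.7% for single-copy sequence.

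Another far peak lay within 10 kb of 49 far peaks (21.4%) and within 1 kb of 25, while the median gap was 116 kb. There were 16 pairs and 5 runs of 3 or more, the latter with 17 peaks. Besides tos-1, C30E1.9 and Y54F10AM.8, the runs were 4 peaks over 17847 bp on V at lpin-1, a phosphatidate phosphatase gene, letm-1 and mip-2 (62.2, 70.0, 57.7 and 62.7) and 3 over 2764 bp on I near mstr-1 and nars-1 (79.8, 70.1 and 60.1), all of single-copy sequence. Chromosome X and IV held 45 far peaks each, V 41, III 38, II 35 and I 25. Per megabase of sequence that met the distance rule, the number ran from 2.79 on I to 4.53 on III. With any nuclear peak counted as neighbour, 37.6% of far peaks and 36.8% of the others had one within 10 kb.

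Signals of far peaks had a median of 64.3 (quartiles 56.6 and 82.8) and ran from 3.76 to 379.6, against a median of 68.1 and a maximum of 351 for the other nuclear peaks. The lowest value belonged to a peak in an untranslated exon of osm-11, a secreted Notch co-ligand. Its interval overlapped that of another far peak, of signal 53.6, whose summit lay 203 bp away, and both took the same candidate in each replicate (30.2 and 30.8). Among the 10 strongest nuclear peaks 6 were far peaks, all 6 of them arrays, and 7 of the 10 were arrays. Among the 100 strongest 23 were far peaks, where 229 of all 840 nuclear peaks were. Of those 100, 18 were arrays, 14 of them far peaks. The list held 0.814% of all 103174 nuclear candidates of the ranked list, 0.406% of the 56466 far candidates and 1.31% of the 46708 candidates near a start. Of the same candidates, 0.643% of the far ones and 1.34% of those near a start were past the threshold, since the list does not hold every candidate past it. The summits nearest to the 1 kb limit on the inner side were 1007 bp (vhp-1, signal 65.0), 1027 bp (ZK470.2, 63.0) and 1031 bp (letm-1, 57.7) from a start. Those nearest on the other side were 998 bp (dhs-8, 102), 990 bp (kin-35, 68.1) and 982 bp (rpl-13, 63.6) from one. The median distance of far peaks was 2125 bp, the largest was 15150 bp, and 22 were more than 5 kb away.

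The authors' list of replicate 1 overlapped 60 far peaks (26.2%, 20.9 to 32.3), where 29.2% of all nuclear peaks did. The list of replicate 2 overlapped 61 (26.6%, 21.3 to 32.7), where 29.5% of all nuclear peaks did, and 33 far peaks were in both (14.4%), where 15.8% of all nuclear peaks were. The conservative list overlapped 152 (66.4%, 60 to 72.2), where 71% of all nuclear peaks did. Of the 33 in both replicate lists, 14 were arrays. By kind, 14 of 30 arrays were in both lists (46.7%), 5 of 19 tRNA-like peaks (26.3%), 7 of 41 on other repeated sequence (17.1%) and 7 of 139 on single-copy sequence (5.04%). Of the 10 arrays among the other nuclear peaks, 5 were in both. So were 43 of their 208 tRNA-like peaks (20.7%), 3 of 20 on other repeated sequence (15%) and 49 of 373 on single-copy sequence (13.1%). The conservative list held 29 of the 30 arrays (96.7%, 83.3 to 99.4) and 80 of the 139 single-copy peaks (57.6%, 49.2 to 65.5). The arrays also had the highest median signal, 102 against 61.1 on single-copy sequence, and its part in these shares was not tested.

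Of the 229 far peaks, 220 had a candidate in each replicate's own ranked list. Across these, Spearman's rho between the replicate signals was 0.321, where it was 0.316 over 803 of all nuclear peaks. By kind, it was 0.789 over 29 arrays, 0.804 over 17 tRNA-like peaks, 0.49 over 41 on other repeated sequence and -0.0398 over 133 on single-copy sequence. Among the other nuclear peaks it was 0.77 over 10 arrays and 0.36 over 202 tRNA-like peaks. There it was 0.495 over 20 on other repeated sequence and 0.181 over 351 on single-copy sequence. The kinds differed in their range of signal. All peaks had also passed an IDR threshold set on the replicates together, which can lower a correlation among peaks close to it. The median −log10 IDR was 2.38 for single-copy far peaks and 3.4 for far arrays. The part of range and threshold in these values was not tested, so the low value is no measure of how single-copy peaks reproduce. These correlations run across sites of the same pair of libraries and are descriptions. The pair of peaks at osm-11 entered with the same replicate values. The 3 most unequal peaks follow. In the pseudogene T23D5.5 near str-27 the values were 40.7 in replicate 1 and 15 in replicate 2. Near mdh-2, malate dehydrogenase, they were 16.4 and 44.1, and in coding sequence of let-99, a spindle orientation gene, 37.8 and 14.5.

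**Figure D4:**
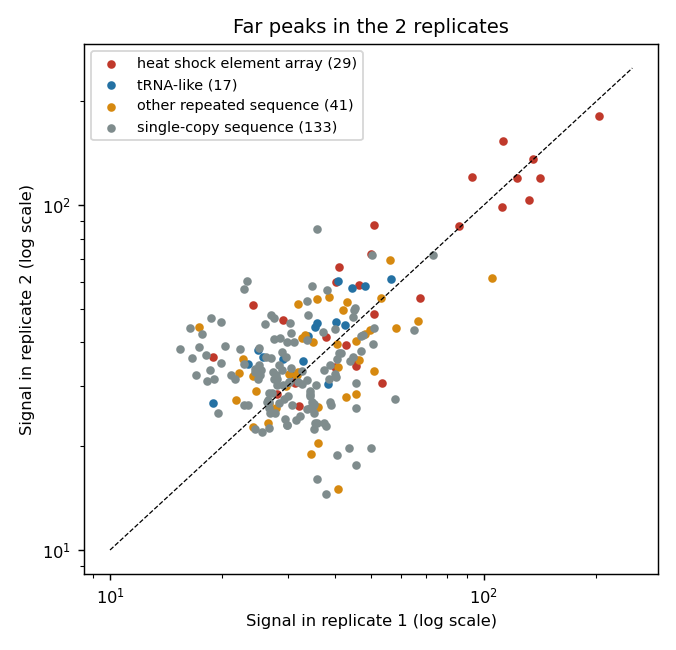
Signal in replicate 2 against signal in replicate 1 (authors' unit, both axes log scale), with 1 point for each of the 220 far peaks with a candidate in both ranked lists, coloured by kind of sequence. The dashed line marks equal signal, and all points above 100 in both replicates are arrays of heat shock elements.

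Words that PBC proteins and their partners are known to bind were searched around each summit. The PBC-Hox word TGATNNAT, on both strands of the 200 bp around the summit, was in 20 far peaks (8.73%, 5.72 to 13.1), in 7.86% of the other nuclear peaks and in 15.1% of the windows. On single-copy sequence it was in 16 of 139 (11.5%). The MEIS word TGACAG was in 6.11% of far peaks, 7.53% of the other nuclear peaks and 6.75% of windows, and the Hox core TAATTA in 6.99%, 4.26% and 9.01%. Windows had a lower GC content (35.3%) than far peaks (42.4% ± 8.06, SD, n = 229 peaks), and the part of base composition in these shares was not tested. The word GAGAGA was in 17% of far peaks, 22.6% of the other nuclear peaks and 9.64% of windows, and in 22.3% of the single-copy far peaks. The B box part GGTTCGA was in 5.68% of far peaks, 23.1% of the other nuclear peaks and 1.43% of windows. In the same order, the telomere unit TTAGGC was in 4.37%, 4.26% and 5.14%, the polyadenylation signal AATAAA in 24%, 26.8% and 36.7%, and TTTTTTTT in 10.5%, 11.5% and 23.9%. A match is a description of the letters and shows no binding by a factor.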

How the data were processed

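Per the labels, ChIP-seq of a CEH-40 fusion was done in 2 biological replicates. The authors deposited peak lists on ce11, ranked by the irreproducible discovery rate (IDR) and thresholded. Neither the peak caller nor the aligner is named (not given in the sources used here). The deposited signal of each peak has no stated unit. Where signals of the replicates are set side by side, they come from separate lists, and no common scale is stated for them. The deposited score follows the deposited −log10 IDR, and the thresholded list of both replicates ends at a score of 830, an IDR of 0.01. Replicate signals came from each replicate's own ranked list by overlap. Genes came from Ensembl release 115 for WBcel235, and sequence, soft-masking and tRNA pseudogenes from RefSeq for that assembly. Coordinates are 1-based. Summits were placed in the first class that applied of noncoding RNA exon, coding, untranslated exon, pseudogene, intron, gene end and intergenic. Peaks were named by rule: the 20 of highest signal, the 5 highest of each class, runs of 3, those near noncoding RNA genes, pseudogenes and the 1 kb limit, those on repeats and the 3 of most unequal replicates. Other named peaks, and the kinds of sequence, were chosen after their values were seen. Members and lists were chosen with earlier results of these data known. No test was made, since there is 1 group. Python 3.11.15 scripts used NumPy 2.4.6 and pandas 2.3.3, and their distance, copy and motif searches were checked on 200 random positions or simulated windows.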

Additional observations from a re-analysis of the deposited data

Results flagged for a closer look

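The ranked list of both replicates holds candidates past the threshold that the thresholded list does not hold, 149 on the nuclear chromosomes, of which 134 were far from the starts used. They were not among the peaks described above and are given as a signal in data outside the main list. The strongest had a signal of 2926.1, with 1514.7 in replicate 1 and 1574.2 in replicate 2, at X 15810957 to 15811186, 858 bp from the pseudogene Y7A5A.11. The strongest peak of the thresholded list on the nuclear chromosomes had 379.6, and 10 of the 134 were above it. The next were 790.0 on X and 788.3 on V near Y49G5A.1. All 10 lay on other repeated sequence, and the strongest array of heat shock elements among the 134 had 222. Of the 134, 124 lay on other repeated sequence, 9 on arrays of heat shock elements and 1 on single-copy sequence, and 119 had a soft-masked summit. For thresholded lists, the descriptions of the samples list 1 more input, and its part in this difference was not tested.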

How the results depend on the processing

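No paired analysis was possible because there is 1 group. Under the alternatives, 91 of 123 values stayed within the Wilson interval of the main share, or within 1.5 times the main count or median. Some of the 91 could hardly have moved, as most peaks were 240 bp wide with the summit at the centre. Taking the midpoint of the peak changed only the share on repeats, to 31%, and asking for a larger overlap between lists changed no share. The count is therefore no measure of robustness. Far peaks numbered 121 beyond 2 kb, of which 6.61% were coding, 42.1% intergenic and 40.5% on repeats. Beyond 500 bp, 28.7% were clustered. With start sites of every gene but piRNA genes, 2.14% lay near another noncoding RNA gene and 4.28% near a pseudogene. In either replicate's own list, which leaves out the other replicate, there were 71 far peaks, with 8.45% at gene ends, 25.4% on arrays, 7.04% to 11.3% coding, 42.3% to 46.5% intergenic, 36.6% to 43.7% on repeats and 15.5% to 16.9% clustered. Narrower or wider limits gave 9.17% (200 bp) and 18.3% (1 kb) at gene ends, 3.93% within 200 bp of a pseudogene and 4.37% with the PBC-Hox word in 100 bp. The 139 members on single-copy sequence, a subset added after the data were seen, had 18.7% at gene ends, 18% coding, 20.1% intergenic, 19.4% near another noncoding RNA gene, 2.88% near a pseudogene, 13.7% on repeats, 57.6% in the conservative list, and 16.5% and 18% in the lists of replicates 1 and 2. The cause of these shifts was not tested. The unknown depth limits all comparisons of signal.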
